A study of Mus musculus with 4 samples.

Results

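Reln, Mmrn1, Pdpn and Klhl4 are 4 genes used as markers of lymphatic endothelium, chosen because their counts were far lower in both genotypes after culture. They are 4 of the 23337 gene symbols measured. RNA was profiled in 4 libraries of mouse lymphatic endothelial cells from embryos at day 14.5, covering wild type and homozygous deletion mutant cells, each taken before and after culture with 1 library a group. The labels do not say what was deleted. An enhancer that GATA2 binds is named in the series title, and the published study places it at Prox1, whose homeobox product specifies lymphatic fate. Cells positive for LYVE1 and VECAD and negative for CD45 were sorted from the dorsal anterior region of embryos, with whole litters pooled by genotype. Some of the sorted cells were lysed at once, and the others spent 7 days on OP9 stromal cells with FLT3L, IL3 and SCF at 100 ng/ml each, after which LYVE1-positive, VECAD-positive cells were sorted anew, a sort for which no CD45 gate is stated. The libraries before and after culture of a genotype therefore come from the same pool of embryos. No group has a replicate, so each comparison is of libraries and no test was made. Intervals are at the 95% level and cover counting error alone, because 1 library a group gives no spread between libraries. They may be too narrow even for counting error. Reads that were amplified and carry no molecular identifier do not count molecules independently.

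Reelin, the product of Reln, is a large secreted glycoprotein best known for guiding neurons in the developing brain through the receptors VLDLR and LRP8 and the adaptor DAB1, and collecting lymphatic vessels also secrete it. Multimerin 1, the product of Mmrn1, is a secreted protein of the EMILIN and multimerin family that platelets and endothelial cells store, and its RNA is abundant in lymphatic endothelium. Podoplanin, the product of Pdpn, is a membrane glycoprotein of lymphatic endothelium whose sugar chains bind CLEC1B on platelets, an interaction that keeps blood and lymphatic vessels separate. It is also made by fibroblasts, mesothelium and other epithelia. KLHL4 belongs to the kelch-like proteins, many of which present substrates to the ubiquitin ligase subunit CUL3.

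The 4 genes lie on separate chromosomes. In mm10 with the GENCODE M21 annotation, Reln occupies the minus strand of chromosome 5 from 21884454 to 22344702, Mmrn1 the plus strand of chromosome 6 from 60924976 to 60989378, Pdpn the minus strand of chromosome 4 from 143267431 to 143299564, and Klhl4 the plus strand of chromosome X from 114474333 to 114560829. No other annotated gene overlaps exons of Mmrn1, Pdpn or Klhl4. An antisense gene, Gm10475, overlaps 246 bases of Reln exons, and without a stated strand setting its reads cannot be told apart from those of Reln.

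The 250 bases before the transcription start of Reln, Pdpn and Klhl4 are printed because the genes were lower together and the series title points to a GATA factor. They come from RefSeq on GRCm38.p6, the same assembly as mm10, in which all 4 symbols had an entry. No promoter is given for Mmrn1, because its start is uncertain. RefSeq places it at 60944317, which is 19341 bases inside the GENCODE gene and is where exon 4 of an annotated transcript begins. The outermost start in the basic GENCODE annotation, 60944476, is 159 bases from the RefSeq start. For the other genes the RefSeq start was within 3 bases of the GENCODE start. The windows are chr5:22344706-22344955 (minus strand), chr4:143299565-143299814 (minus) and chrX:114474083-114474332 (plus), given 5′ to 3′ along the gene. Capitals mark the GATA core GATAA, the GC box GGGCGG and the nuclear receptor half-site AGGTCA on either strand.
Reln: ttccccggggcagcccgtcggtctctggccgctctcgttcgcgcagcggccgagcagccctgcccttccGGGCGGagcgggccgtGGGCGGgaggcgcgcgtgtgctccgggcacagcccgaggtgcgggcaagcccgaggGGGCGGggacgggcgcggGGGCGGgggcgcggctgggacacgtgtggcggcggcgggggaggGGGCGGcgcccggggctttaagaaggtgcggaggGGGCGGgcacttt
Pdpn: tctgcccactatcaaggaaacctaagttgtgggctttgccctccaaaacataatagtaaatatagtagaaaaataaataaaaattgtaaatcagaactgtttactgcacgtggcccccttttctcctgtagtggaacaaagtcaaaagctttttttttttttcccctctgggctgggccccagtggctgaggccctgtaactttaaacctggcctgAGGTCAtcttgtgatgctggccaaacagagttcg
Klhl4: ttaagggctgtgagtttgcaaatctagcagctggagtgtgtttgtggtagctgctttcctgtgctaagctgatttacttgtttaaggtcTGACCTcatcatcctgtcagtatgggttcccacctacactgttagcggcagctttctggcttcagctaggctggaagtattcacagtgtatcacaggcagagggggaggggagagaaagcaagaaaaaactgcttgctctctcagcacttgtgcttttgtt

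The promoters differed in base composition. That of Reln was 80.7% G or C over 300 bases, counting the 50 bases after the start that are not printed, with 47 CpG pairs, against medians of 52.7% and 7 over 32851 RefSeq promoters. It held 6 copies of GGGCGG, a motif present in 35.7% of promoters. The promoters of Pdpn and Klhl4 were 48.7% and 46.3% G or C, with 7 and 1 CpG pairs. GATAA occurred in 25.4% of promoters. Of the 3 shown it was found only in that of Klhl4, once, at base 32 after the start. The window at the RefSeq start of Mmrn1, which is not shown, held GATAA once, at base -33. AGGTCA, in 16.3% of promoters, was found once each in those of Pdpn and Klhl4. Pdpn also held 2 copies of GGGCGG, both after the start. Of the other motifs searched on both strands, ACAAT (31.0% of promoters) and CACNNCT (50.3%) occurred once each in Pdpn, CGGAA (29.9%) once in Reln, overlapping a GGGCGG copy, and TATAAA (13.6%) in none of the 3. A match is a description of letters, and the absence of one holds only for this window.

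Gene counts totalled 1694669 to 7943587 a library, with the wild type library after culture the shallowest. Levels are given as CPM, counts scaled to library size with the TMM method. Olfactory and vomeronasal receptor genes, 1410 in all, which endothelium is not known to express, gave a background rate per coding kb of 6.64 counts for wild type and 8.35 for mutant cells before culture, falling to 0.535 and 1.62 after it. Over all exons that is 12.6%, 7.96%, 2.39% and 3.12% of gene counts in that order, so the background expected for each of the 4 genes is given beside its low counts. Endothelial and lymphatic genes, those of the sort included, were detected in all 4 libraries. Prox1, Lyve1, Flt4, Cdh5 and Pecam1 had 284 to 10996 counts in each, though Prox1 was lower after culture in both genotypes. Lyve1 and Cdh5 encode the sorted proteins, so their presence was selected. Not every lymphatic marker was detected, as Pdpn had 0 counts in the cultured wild type library. Ptprc, the gene of CD45, had 6 to 118 counts, against an expected background of 2.74 to 42.7.

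Before culture the 4 genes were among the more abundant transcripts, and after it Reln and Pdpn had 72 counts or fewer in each library while Mmrn1 and Klhl4 had 429 or more. Together they held 0.50% of gene counts in the wild type and 0.416% in the mutant library before culture, and 0.0529% and 0.0454% after it. Genes that reached 20 counts in either library compared were compared, and called lower or higher when the entire interval of the fold was past 2-fold. All 4 were called lower in both genotypes. Over all genes, 5.77% of 17154 were called lower and 8.17% higher in wild type cells, and 3.62% of 18807 were lower and 5.19% higher in mutant cells. The genes were chosen on this contrast, so these counts and the values that follow describe the choice and test nothing. In bulk RNA, fewer cells that express a gene and less RNA in each cell cannot be told apart.

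**Figure D1:**
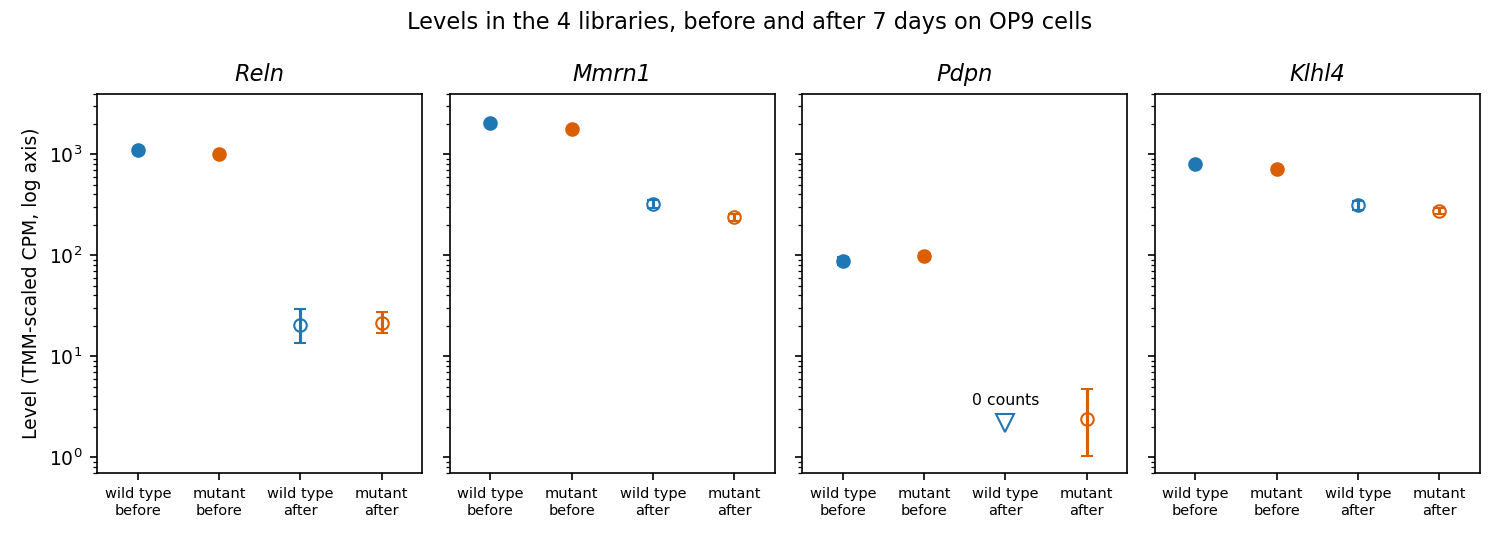
Level of each gene in TMM-scaled CPM on a log axis, 1 point a library with its 95% Poisson interval (blue wild type, orange mutant, filled before and open after culture). The open triangle is the limit of 2.18 CPM that 3 counts would give for Pdpn in the wild type library after culture, which had 0 counts. Reln drops from 1012 CPM or more to 21.5 CPM or less, whereas Klhl4 stays at 272 CPM or more.

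Reln, the secreted ligand, had 5434 counts in the wild type and 9321 in the mutant library before culture, and 28 and 72 after it. Its levels were 1091 CPM (1062 to 1120), 1012 CPM (991 to 1032), 20.4 CPM (13.5 to 29.4) and 21.5 CPM (16.8 to 27.1). The pair of libraries before culture stood far above the pair after culture, and the intervals of the cultured libraries overlapped. Reln was 53.5-fold lower after culture in wild type cells (37.0 to 80.6), and in mutant cells 47.0-fold lower (37.3 to 60.1). The background expected over its 11.7 kb of exons was 6.26 of the 28 counts and 18.9 of the 72. Without it the gene was 75.9-fold and 66.4-fold lower. Ordered from the lowest log2 fold, Pdpn ranked 1, Reln 4, Mmrn1 1008 and Klhl4 4112 of 17154 genes in wild type cells. In mutant cells Reln ranked 1, Pdpn 4, Mmrn1 108 and Klhl4 1820 of 18807.

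Pdpn, the membrane glycoprotein, had 435 counts in the wild type and 915 in the mutant library before culture, and 0 and 8 after it. These are 87.3 CPM (79.3 to 95.9) and 99.3 CPM (93.0 to 106), then a level of at most 2.18 CPM by the limit that 0 counts allow, and 2.39 CPM (1.0 to 4.7). It was at least 40.0-fold lower in wild type cells taking 3 counts for the 0, with an interval from 32.4 upward, and in mutant cells it was 41.5-fold lower (21 to 96.4). The background expected over its 1.82 kb of exons was 0.972 counts in the wild type and 2.94 in the mutant library after culture, the latter out of 8 counts. The cells of both cultured libraries had been sorted for another lymphatic marker, LYVE1.

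Mmrn1, the secreted multimerin, had the most counts of the 4 before culture, 10116 in the wild type and 16225 in the mutant library, and 440 and 792 after it. Its levels were 2030 CPM (1991 to 2070), 1761 CPM (1734 to 1788), 320.1 CPM (291 to 351) and 237 CPM (221 to 254). No pair of these intervals overlapped, and within each culture state the mutant library was the lower. Mmrn1 was 6.34-fold lower after culture in wild type cells (5.76 to 6.99), and in mutant cells 7.44-fold lower (6.92 to 8.0). The background expected after culture was at most 7.25 of its counts.

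Klhl4, the kelch-like protein, had 3958 counts in the wild type and 6549 in the mutant library before culture, and 429 and 911 after it. Its levels were 794 CPM (770 to 819), 711 CPM (694 to 728), 312 CPM (283 to 343) and 272 CPM (255 to 291). It was 2.55-fold lower after culture in wild type cells (2.30 to 2.82), and in mutant cells 2.61-fold lower (2.43 to 2.80). The name of a gene lost in culture does not hold for Klhl4, which kept 39.3% and 38.3% of its level in the cultured wild type and mutant cells, nor fully for Mmrn1, which kept 15.8% and 13.4%. Reln and Pdpn kept at most 2.50%. The fall of Klhl4 in wild type cells was close to that of Prox1, which was 2.45-fold lower (2.17 to 2.78), but in mutant cells Prox1 was 3.55-fold lower (3.22 to 3.91).

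The order of the genes per kb of exon changed with culture. In wild type cells before culture Mmrn1 stood at 453 CPM per kb, Klhl4 at 222, Reln at 93.2 and Pdpn at 48.0, and no intervals overlapped. Mmrn1 was then the 10th most abundant of 22872 genes per kb in the wild type library and the 19th in the mutant library, while Pdpn was 693rd and 692nd. After culture Klhl4 came first, at 87.1 CPM per kb (79.0 to 95.7) in wild type and 76.0 (71.2 to 81.1) in mutant cells. Mmrn1 followed at 71.5 (65.0 to 78.5) and 52.9 (49.3 to 56.7). Reln and Pdpn, at 1.84 (1.44 to 2.32) and 1.32 (0.568 to 2.59) in the mutant library, did not differ beyond counting error. Their ranks per kb after culture ran from 12574 to 19048.

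The numerical threshold for a far lower count is not stated in the rule, so the 4 genes are set among the other lymphatic genes. Of 30 measured genes of a lymphatic identity list, the 4 members included, 11 were called lower and 8 higher after culture of wild type cells, and 11 lower and 4 higher in mutant cells. The 11 lower genes were the same in both, and 7 of them are not among the 4. Over all genes compared, 5.77% were called lower and 8.17% higher in wild type cells, and 3.62% and 5.19% in mutant cells. The list median was a log2 fold of 0.17 in wild type and -0.14 in mutant cells, against -0.05 and -0.09 over all genes compared, so the middle of the list lay near that of all genes. With total counts in place of TMM the wild type median was -0.45. On the TMM scale the pattern was split within the list. Lyve1, the hyaluronan receptor selected by the sort, had a fold of 3.29 (3.16 to 3.42) in wild type and 3.08 (2.99 to 3.18) in mutant cells. On a scale set by pan-endothelial genes Lyve1 stood at only 1.05 and 1.15, so the size of its rise depended on the scale. Flt4, the VEGFC receptor, had folds of 2.33 (2.23 to 2.43) and 1.90 (1.85 to 2.0) with TMM, the latter not called. On the pan-endothelial scale Flt4 stood below 1, at 0.745 and 0.709.

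Just above Klhl4 in the wild type order came Prox1 and then Nrp2, the VEGFC co-receptor. Nrp2 was 1.89-fold lower in wild type (1.78 to 2.01), and in mutant cells 1.90-fold lower (1.83 to 1.98), and was not called. Dtx1, a regulator of Notch signalling, lay at the low end beside Pdpn and Reln, with 508 and 932 counts before and 1 and 8 after culture. It was 140.1-fold lower in wild type cells (25 to 5546), and in mutant cells 42.3-fold lower (21.4 to 98.2). The background expected for Dtx1 after culture was 2.16 counts in the wild type and 6.53 in the mutant library, so neither count stood clear of it. The other genes called lower in both genotypes were Thy1, Pard6g, Slco2b1, Tbx1 and Fam38b, an older symbol of Piezo2. They are named here after their values were seen. Thy1, a surface glycoprotein that fibroblasts also carry, was 8.32-fold lower in wild type (4.81 to 15.8), and in mutant cells 9.74-fold lower (6.99 to 14).

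**Figure D2:**
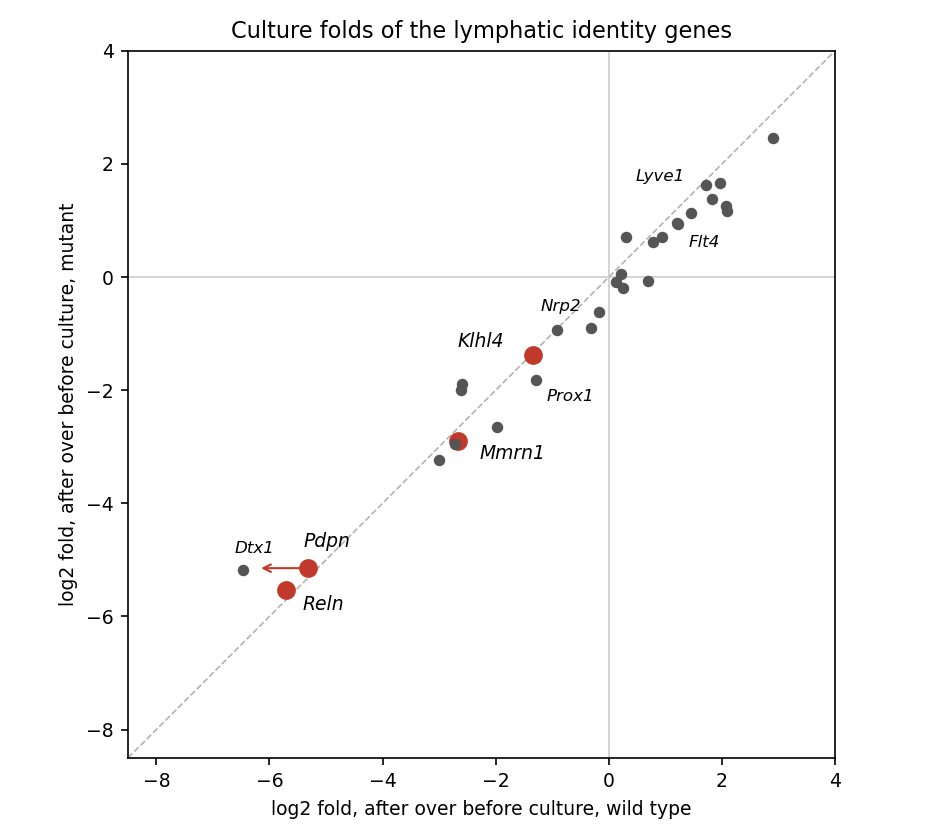
Log2 fold after over before culture for the 30 measured lymphatic identity genes, wild type on the horizontal and mutant on the vertical axis, with the 4 members in red and a dashed line of equal folds. Pdpn is drawn at its bound in wild type cells, where the arrow marks that the true value may be lower. Reln, Pdpn and Dtx1 sit apart at the lower left, while Lyve1 and Flt4 lie above 0 on both axes on this TMM scale.

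Between genotypes the 4 genes differed little before culture, a contrast that the choice of genes did not use directly. The choice asked for a fall in both genotypes, so it drew on the counts of all 4 libraries. A small difference between genotypes may therefore be partly built in. Mutant over wild type folds were 0.928 for Reln (0.897 to 0.959), 0.867 for Mmrn1 (0.846 to 0.889), 0.895 for Klhl4 (0.860 to 0.931) and 1.14 for Pdpn (1.01 to 1.28). None was called, where 0.0475% of 18934 genes were called lower and 0.0158% higher. Reln, Mmrn1 and Klhl4 were slightly lower in the mutant library by more than counting error on every scale run. Spread between litters or between libraries was not measured. The interval of Pdpn included 1 with background subtracted, at 1.09 (0.971 to 1.23), and with total counts, at 1.06 (0.941 to 1.19).

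After culture Mmrn1 stood at 0.740 of the wild type level (0.658 to 0.833), Klhl4 at 0.873 (0.777 to 0.981) and Reln at 1.06 (0.674 to 1.70). On the pan-endothelial scale the interval of Klhl4 included 1, at 0.951 (0.847 to 1.07), and that of Mmrn1 did not, at 0.806 (0.717 to 0.908). Pdpn, with 8 counts against 0, was at least 1.10-fold higher in the mutant library taking 3 counts for the 0, with an interval from 0.702 upward, so at this depth no difference could be detected. Reln, Mmrn1 and Klhl4 were compared and not called, where 0.0731% of 12309 genes were called lower and 0.244% higher. Pdpn fell short of the count filter in this comparison, so it was not among those genes and could not be called. Klhl4 is X-linked, and Xist, whose RNA coats the inactive X, was higher in the mutant library by 2.27-fold before culture (2.16 to 2.39) and 3.33-fold after it (3.08 to 3.61). The part of that difference in the values of Klhl4 was not tested.

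**Figure D3:**
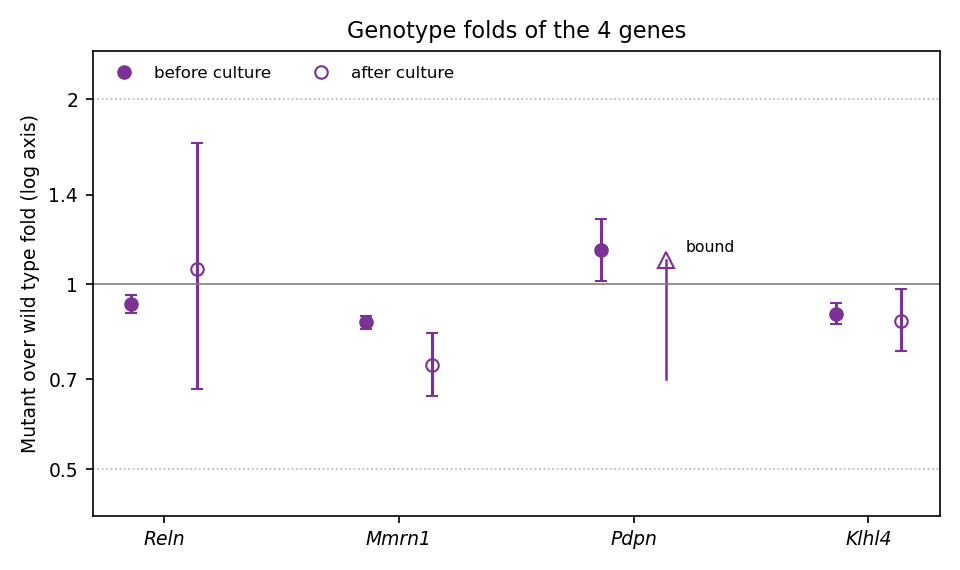
Mutant over wild type fold of each gene on a log axis, with 95% intervals for counting error (filled before culture, open after it). The triangle is the bound for Pdpn after culture, with a line down to where its interval begins, and dotted lines mark 2-fold. Every point lies between 0.740 and 1.14.

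The size of the fall was compared between genotypes as the culture fold of the mutant over that of the wild type libraries. It was 1.14 for Reln (0.735 to 1.77), 0.975 for Klhl4 (0.864 to 1.10) and 0.853 for Mmrn1 (0.757 to 0.961), and it was not computed for Pdpn, which had 0 counts in a library. The ratios depended on the scale. That of Mmrn1 left out 1 with TMM and with DESeq2 size factors, at 0.826 (0.733 to 0.930). It included 1 with background subtracted, at 0.901 (0.799 to 1.02), with total counts, at 0.964 (0.856 to 1.09), and on the pan-endothelial scale, at 0.992 (0.880 to 1.12). The ratio of Klhl4 included 1 except on the pan-endothelial scale, at 1.13 (1.00456 to 1.28), and that of Reln included 1 on every scale run. Cdh5, the gene of VECAD, went from 0.868 (0.824 to 0.915) with TMM to 1.01 (0.958 to 1.06) on the pan-endothelial scale. Cdh5 is itself among the genes that set that scale, so a ratio near 1 there is partly built in. The ratio of Prox1 stayed below 1 on each of the 4 scales, from 0.670 (0.573 to 0.783) with DESeq2 size factors to 0.805 (0.689 to 0.940) on the pan-endothelial scale.

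Of 21 genes of the reelin pathway measured, 1 was called lower, Reln itself, and 5 higher in wild type cells, and 2 lower and 4 higher in mutant cells, where the other gene called lower was the adaptor gene Dab1. Over all genes 5.77% and 3.62% were called lower, and 8.17% and 5.19% higher. The median log2 fold was 0.43 in wild type and 0.53 in mutant cells, against -0.05 and -0.09 over all genes, and in wild type cells -0.19 with total counts. Fyn, a kinase that phosphorylates DAB1, had folds of 2.98 (2.70 to 3.28) and 2.79 (2.62 to 2.98), and Dab2, an adaptor of the same family, 2.95 (2.72 to 3.20) and 2.55 (2.4 to 2.71). On the pan-endothelial scale Dab2 stood at 0.945 and 0.95, and Fyn at 0.953 in wild type cells. Counts of the receptor genes were 247 and 445 for Vldlr and 244 and 438 for Lrp8 before culture, in wild type and mutant cells, and 26 and 108 for Vldlr and 63 and 206 for Lrp8 after it, with neither called. Vldlr was 2.62-fold lower in wild type cells (1.75 to 4.09), and in mutant cells its level was 1.5-fold lower (1.21 to 1.86). Lrp8 had folds of 0.936 (0.698 to 1.24) and 1.30 (1.09 to 1.53). Dab1 was 2.50-fold lower in wild type (1.41 to 4.84) and not called, and 4.18-fold lower in mutant cells (2.55 to 7.33). Its background expected after culture was 3.07 of 13 counts in the wild type and 9.30 of 17 in the mutant library. These 3 genes are given after their values were seen. Of 8 genes of proteases that include reelin-cleaving enzymes, none was called in wild type cells, and Adamts2 and Adamts3 were called lower in mutant cells. Adamts3, which cleaves reelin and also activates VEGFC processing, was 3.35-fold lower in wild type (1.94 to 6.26), and in mutant cells 3.72-fold lower (2.57 to 5.57).

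Within its protein family Mmrn1 moved opposite to its closest namesake. Mmrn2, a multimerin of blood vessel endothelium, had 746 counts in wild type and 1607 in mutant cells before culture, and 1384 and 3253 after it. It was 6.73-fold higher after culture in wild type cells (6.15 to 7.36) and 5.58-fold higher in mutant cells (5.25 to 5.92), and higher on each scale tried. Per kb of exon, Mmrn1 exceeded Mmrn2 before culture, at 453 against 37.7 CPM per kb in wild type and 393 against 43.9 in mutant cells. After culture the order was the reverse, at 71.5 against 253 and 52.9 against 245 CPM per kb. Among the 6 EMILIN and multimerin genes, 2 were called lower and 1 higher in wild type cells, and 3 lower and 1 higher in mutant cells. The lower genes include Mmrn1, which was chosen on this contrast, and the only other one in wild type cells was Emilin3. The shares over all genes were 5.77% lower and 8.17% higher in wild type cells, and 3.62% and 5.19% in mutant cells. Emilin1, an elastic fibre protein that also anchors lymphatic vessels, was 1.83-fold lower in wild type (1.48 to 2.29) and not called, and 2.46-fold lower in mutant cells (2.13 to 2.84) and called. Emilin3 fell from 61 and 188 counts to 0 and 7, with an expected background of 23.6 and 29.6 before culture and 1.90 and 5.75 after it. Of 11 genes of multimerin 1 partners, 3 were called lower and 4 higher in each genotype. Vwf, the von Willebrand factor gene, was 2.69-fold lower in wild type (2.11 to 3.47), and in mutant cells 3.13-fold lower (2.71 to 3.63).

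The gene of the podoplanin receptor was higher in the libraries in which Pdpn was lower. Clec1b had 22 and 34 counts before culture in wild type and mutant cells and 180 and 374 after it, against an expected background of 7.24 and 9.10 before and 0.583 and 1.77 after. That is 29.7-fold higher in wild type (19.0 to 48.5) and 30.3-fold higher in mutant cells (21.3 to 44.4). Of 18 measured genes of podoplanin partners and glycosylation, 1 was called lower and 5 higher in each genotype. Among all genes 5.77% and 3.62% were called lower and 8.17% and 5.19% higher, so the lower count is near that share. The list had median log2 folds of 0.61 and 0.53, or -1.02 and -0.89 on the pan-endothelial scale. The linkers from podoplanin to actin moved apart. Msn, moesin, had folds of 2.92 (2.76 to 3.09) in wild type and 2.67 (2.57 to 2.77) in mutant cells, or 0.934 and 0.993 on the pan-endothelial scale, whereas Ezr, ezrin, was 3.03-fold lower (2.15 to 4.40) and 2.74-fold lower (2.22 to 3.42).

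Of 39 kelch-like and cullin 3 partner genes measured in wild type cells, 2 were called lower and 5 higher, and of 40 in mutant cells 2 were lower and 4 higher, with Klhl4 among the lower genes in both. The shares called lower are near the 5.77% and 3.62% over all genes, where 8.17% and 5.19% were called higher. The medians were 0.15 in both, or -0.47 and -0.29 without TMM. Klhl6, a gene known from lymphocytes and also present in endothelium, was 5.63-fold higher in wild type (4.38 to 7.26) and 7.11-fold higher in mutant cells (5.97 to 8.51). Klhl24 had folds of 2.89 in both genotypes (2.44 to 3.41 and 2.56 to 3.27), or 0.924 on the pan-endothelial scale in wild type cells.

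Endothelial genes outside the lymphatic list were compared on the same TMM scale, where 8.17% and 5.19% of all genes were called higher and 5.77% and 3.62% lower. In wild type cells 14 of 20 pan-endothelial genes were higher and in mutant cells 12, with none lower in either and median log2 folds of 1.54 and 1.28, a direction that turns when these genes themselves set the scale. Of 16 sinusoid and capillary genes, 11 were higher and 1 lower in each genotype, with medians of 3.11 and 3.10. F8, the clotting factor VIII gene of sinusoids, was 34.8-fold higher in wild type and 52.4-fold higher in mutant cells. Scaled to the summed pan-endothelial counts, Reln, Mmrn1 and Klhl4 kept 0.598%, 5.05% and 12.6% of their levels in wild type cells.

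Markers of other cell types that make Reln or Pdpn also moved with culture. Beside them, 5.77% of all genes were called lower and 8.17% higher in wild type cells, and 3.62% and 5.19% in mutant cells. Of 15 fibroblast and stromal genes, 8 were called lower and 1 higher in wild type cells, and 9 lower and 1 higher in mutant cells. Their summed level went from 3533 to 1854 CPM in wild type and from 5594 to 1647 CPM in mutant cells, with Lum at 0 in the cultured wild type library and no gene at 0 in the others. Of 12 neuronal genes, 5 were called lower and none higher in each genotype, with sums of 311 and 350 CPM before and 183 and 219 CPM after culture, with Stmn2 at 0 in the cultured wild type library. Of epithelial and mesothelial genes, 1 of 9 was called lower in wild type and 5 of 11 in mutant cells, with sums of 101 and 114 CPM before and 40.0 and 37.4 CPM after, and Lgals7 at 0 in the cultured mutant library. Epithelial counts were 503 and 1052 before culture against an expected background of 179 and 225. The part of these cells in the values of Reln and Pdpn was not tested.

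Platelets also hold multimerin 1, and platelet and megakaryocyte genes were mixed. Their sum was 121 and 129 CPM before culture and 462 and 469 CPM after it in wild type and mutant cells. The counts before culture were 605 and 1191, against an expected background of 258 and 324. Of 9 measured in wild type cells 2 were called higher and none lower, and of 11 in mutant cells 3 higher and none lower. The higher genes were Itga2b and Clec1b in both and Plek in mutant cells, while the list median was a log2 fold of 0.55 in wild type and -0.78 in mutant cells. Pf4, Gp1bb, Gp9 and Gp6 were at 0 in the cultured wild type library and Ppbp in the cultured mutant library. Macrophage and leukocyte genes had 1 gene called lower and none higher in each genotype, of 11 and 12 measured, with sums of 395 and 397 CPM before and 280.1 and 366 CPM after, and C1qa and Coro1a at 0 in the cultured wild type library. Adipocyte genes had 7 of 8 called higher in wild type and 5 of 10 in mutant cells, with sums of 112 and 100.1 CPM before and 952 and 670 CPM after. For all 3 lists the shares over all genes were 5.77% and 3.62% called lower and 8.17% and 5.19% called higher.

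**Figure D4:**
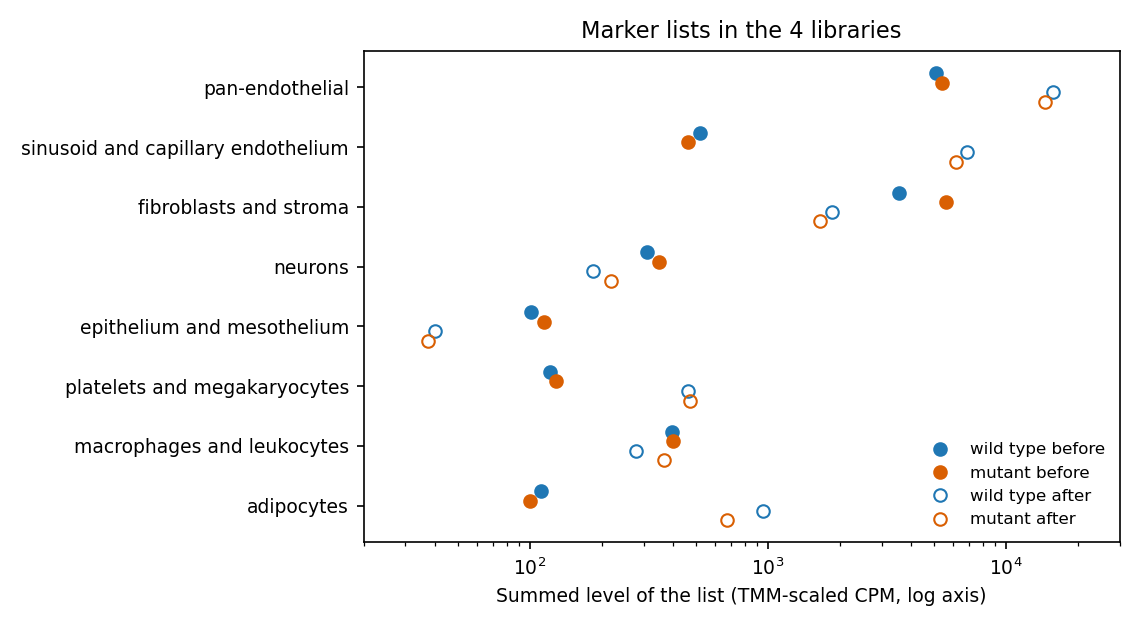
Summed TMM-scaled CPM of 8 marker lists on a log axis, 1 point a library (blue wild type, orange mutant, filled before and open after culture). Endothelial, platelet and adipocyte sums are higher after culture, and fibroblast, neuronal, epithelial and leukocyte sums are lower. Within the platelet list only Itga2b and Clec1b were called higher in both genotypes.

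The genes most like each of the 4 across the 4 libraries were found by the distance between log2 levels centred on their mean, among 10544 genes with at least 100 counts in a library. Nearest to Reln were Bex2, Nnat and Tmod2, at distances of 0.66, 0.80 and 0.80. All 3 are also transcribed in neurons. Tmod2 had 1186 and 2021 counts before and 9 and 29 after culture, in wild type and mutant cells. The background expected for Tmod2 after culture was 6.02 and 18.2 of those counts. Nearest to Pdpn were the fibroblast proteoglycan gene Lum, at 0.98, then Dtx1 and Bex2, at 1.19 and 1.86. Lum had 185 and 534 counts before and 0 and 7 after culture, where the expected background was 1.31 and 3.96. Nearest to Mmrn1 were Chrnb1, Edn3 and Cav1, at 0.16, 0.18 and 0.23. Cav1, the gene of the caveolar coat protein caveolin 1, had 2198 and 3659 counts before culture and 101 and 148 after it. It was 6.0-fold lower in wild type (4.92 to 7.40), and in mutant cells 8.97-fold lower (7.61 to 10.6). Nearest to Klhl4 were Krt77, Creb3l3 and F13a1, all within 0.04 and all with at most 169 counts in a library. Among themselves the 4 genes were less alike, with Reln the 6th nearest gene to Pdpn and Klhl4 the 494th nearest to Mmrn1. These distances rest on 4 libraries that share the same scaling, and describe likeness only.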

How the data were processed

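The authors deposited 1 table a library with raw counts for 23337 gene symbols. Stranded total RNA libraries were sequenced as paired 75 nt reads, as the labels' protocols state, and the submitters' processing notes name mm10, STAR, bcl2fastq and HTSeq 0.11.2. Duplicates were removed with sambamba, per the names of the deposited count tables. For annotation and strand setting, the sources used here give nothing. The 5 HTSeq summary classes stayed out of totals. Read pairs counted in genes were 7.94% in wild type and 8.79% in mutant cells before culture, and 9.94% and 10.5% after it. Pairs assigned to no feature were 66.5% and 53.6% before culture, and 20.0% and 30.3% after it, so this share differed along the culture comparison. All remaining pairs fell in the other HTSeq classes, and their share was larger after culture than before it in both genotypes.

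Counts were scaled by TMM in edgeR 4.0.16 (R 4.3.3). Levels carry exact Poisson intervals, and folds carry intervals derived by the Clopper-Pearson method from a gene's split of counts between libraries. A 0 was replaced by 3 counts for a bound. Log2 folds used a prior count of 2. Exon lengths from the basic GENCODE M21 annotation covered 98.0% of symbols. Background was the receptor rate times exon length. The call procedure was tested on simulated data. These held Poisson counts from a shared profile with known library sizes. The simulation therefore could not show how spread between libraries, the choice of scale or background affects the calls.

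The 4 genes and the lists were chosen with earlier results of these data known. Genes named were the 4, Prox1, Lyve1, Cdh5, Flt4, Pecam1 and Ptprc, from each list the called members highest in counts (at most 4, or 2 if there were none), the 3 nearest in likeness, and the lymphatic genes next above the 4. Alternatives were DESeq2 1.42.0 size factors, total counts, pan-endothelial scaling, background subtraction, other count filters, a 4-fold threshold and a prior count of 0.5.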

Additional observations from a re-analysis of the deposited data

Results flagged for a closer look

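Mmrn1 is listed because its culture fold differed between genotypes by more than counting error on the TMM scale. The fold after over before culture in the mutant libraries was 0.853 times that in the wild type libraries (0.757 to 0.961). With DESeq2 size factors the ratio was 0.826 (0.733 to 0.930). The interval included 1 with background subtracted, at 0.901 (0.799 to 1.02), with total counts, at 0.964 (0.856 to 1.09), and on the pan-endothelial scale, at 0.992 (0.880 to 1.12). With 1 library a group, the spread between libraries was not measured.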

How the results depend on the processing

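The labels give no replicate numbers, and each group holds 1 library, so none was left out. A model with genotype and culture as terms, pairing libraries by pool, was not run. Under every scaling, filter and background setting run, all 4 genes were called lower after culture in both genotypes, except that Klhl4 was not called at a 4-fold threshold. The ratio of culture folds under other scalings was added after seeing the data. With total counts and pan-endothelial scaling it was 0.964 and 0.992 for Mmrn1 and 1.10 and 1.13 for Klhl4. With DESeq2 size factors each fold and ratio of the 4 genes stayed inside its main interval, and each number of genes called stayed within 1.5 times. The list medians, less that of all genes, moved by less than the interquartile range of the list. That also held with a prior count of 0.5, which was run on list medians alone.

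Scaling by total counts moved all log2 culture folds by -0.62 in wild type and -0.45 in mutant cells, and pan-endothelial scaling by -1.64 and -1.43. With total counts, the culture folds (after over before) of Reln, Mmrn1 and Klhl4 were 0.0121, 0.102 and 0.255 in wild type and 0.0156, 0.0986 and 0.281 in mutant cells, and their genotype folds before culture were 0.861, 0.805 and 0.831. Genes called lower and higher then numbered 2983 and 516 for wild type culture and 1850 and 493 for mutant culture, with 17 lower in the genotype comparison before culture. The main counts were 989 and 1401, 680 and 976, and 9.

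With pan-endothelial scaling, the culture folds were 0.00598, 0.0505 and 0.126 in wild type cells. In mutant cells they were 0.00792 for Reln, 0.0501 for Mmrn1, 0.00897 for Pdpn and 0.143 for Klhl4. Genotype folds before culture were 0.870, 0.813 and 0.839. Called lower and higher were 8834 and 134 genes for wild type culture and 9177 and 158 for mutant culture, and 14 genes were lower by genotype before culture.

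With background subtracted, the culture folds were 0.141 for Mmrn1 and 0.352 for Klhl4 in wild type and 0.0151 for Reln in mutant cells. Genotype folds before culture were 0.884, 0.824 and 0.851 for Reln, Mmrn1 and Klhl4, and the bound of Pdpn after culture was 0.698. Genes called were 610 lower for wild type culture, and 39 and 19 higher by genotype before and after culture, against 3 and 30.

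With at least 100 counts, 401 genes were lower for wild type culture, 1 was lower by genotype before culture, and 0 were lower and 1 higher by genotype after it. At a 4-fold threshold, 96 genes were lower and 291 higher for wild type culture, 132 and 248 for mutant culture, 1 and 0 by genotype before culture and 4 and 0 after it. With no count filter, 20 and 19 genes were lower by genotype before and after culture, against 9 each. Depth limits Pdpn most, with 0 and 8 counts after culture. What causes these shifts was not tested, apart from the scale itself.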
